A study of Mus musculus with 6 samples.

Results

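The genes described here were the members of the 4 mouse Hox clusters together with the Meis and Pbx genes, whose products bind DNA beside HOX proteins. They were chosen by symbol from the protein-coding genes of GENCODE mouse release 21 (every Hoxa, Hoxb, Hoxc, Hoxd, Meis and Pbx gene with a number). This gave 46 of 21755 protein-coding genes on chromosomes 1 to 19 and X. Of these, 11 lie in HoxA, 10 in HoxB, 9 in HoxC and 9 in HoxD, and the rest are 3 Meis and 4 Pbx genes.

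The data were H3K79me2 ChIP-seq peak lists of N2a, an established line of mouse neuroblastoma cells. Cells were transfected with a plasmid for a control short hairpin RNA (CTR) or for one that targets Npm1 (NPM1 KD), selected with puromycin in both groups, and harvested at 3 days in vitro. There were 2 libraries per group, which the methods of the study describe as separate passages and transfection batches. The 2 pooled inputs were not used here. Nothing in the peak lists measures how far Npm1 RNA fell, so the knockdown itself was not checked from these data. The study reports immunoblots of its ChIP-seq replicates, with lower NPM1 and higher H3K79me2 after the knockdown.

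H3K79me2 is placed on histone H3 by DOT1L, the known methyltransferase for this residue, and usually lies over the 5′ part of transcribed gene bodies. Hox genes encode homeodomain transcription factors that set position along the body axis, and they are switched on in order along each cluster, from the 3′ to the 5′ genes. MEIS and PBX proteins are homeodomain proteins of the TALE class that bind DNA together with HOX proteins. HOX genes and MEIS1 are best known in connection with this mark from leukaemias with rearranged MLL or mutated NPM1, in which their expression depends on DOT1L.

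Peaks were given per library as broad lists, meant for long domains, and narrow lists, which mark local summits. The fold of a peak is its ratio to the background that MACS2 estimated, taken at the summit in narrow lists and as the average along the peak in broad lists. Values of single libraries are given below in the order CTR 1, CTR 2, NPM1 KD 1, NPM1 KD 2. The length under broad peaks was 236, 223, 253 and 244 Mb, and the lists held 34845 to 48764 broad and 73801 to 88348 narrow peaks. CTR 2 had the fewest of both. The total reads behind each list were unknown. The background pileup that the fold and p of the narrow peaks imply, a relative measure of depth, was 11.9, 7.65, 8.99 and 11.8, lowest in CTR 2, and the number of libraries, 2 per group, limits every comparison below. Of 15 sympathoadrenal neuroblastoma genes, 12 carried a broad peak in all 4 libraries, among them Phox2a, Hand2 and Mycn with at least 99.7% of the gene body covered. Hand1 and Dbh carried none in any library. None of the 6 blood, 5 fibroblast, 3 liver or 3 muscle markers had a peak in any library, and of 6 glial markers only Mbp did, over 1.1% to 2.5% of its body.

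H3K79me2 split these genes sharply. A broad peak touched the gene body in all 4 libraries for 12 of the 46 genes (26.1%), whereas 10911 of 21755 protein-coding genes (50.2%) were marked in this way. Among the marked genes were Hoxc10, Hoxc9, Hoxc8, Hoxc6, Hoxc5 and Hoxc4 and, outside the clusters, Meis1, Meis2, Pbx2, Pbx3 and Pbx4. Another 33 genes, all of them Hox genes, had no peak in any library, and Meis3 had a single short peak in NPM1 KD 1. No gene of the 46 had a peak in both libraries of one group and lacked it in the other group. The counts of 12 marked and 33 unmarked genes were the same in the narrow lists and with the 3 kb upstream of each gene added.

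**Figure D1:**
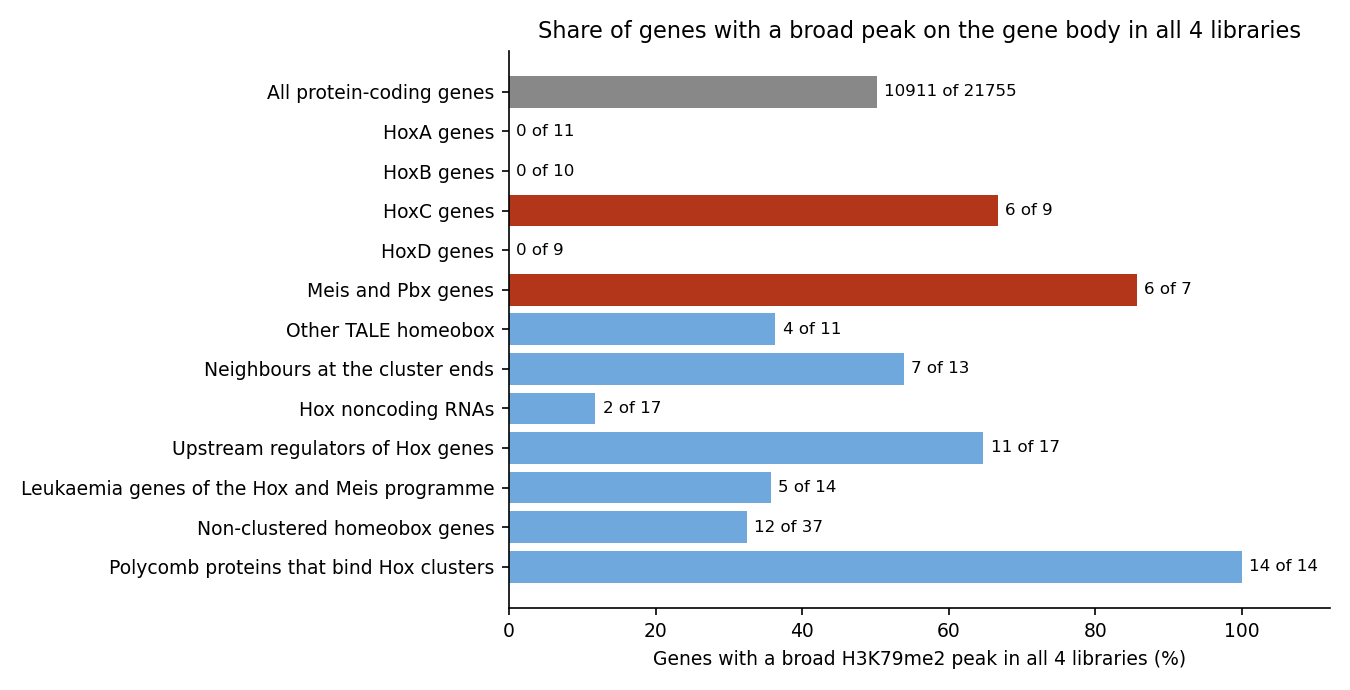
Share of genes with a broad H3K79me2 peak on the gene body in all 4 libraries, in percent, with the number of genes beside each bar; red bars are the Hox clusters and the Meis and Pbx genes, blue bars are related gene lists and the grey bar is all protein-coding genes. HoxA, HoxB and HoxD are at 0 of 11, 0 of 10 and 0 of 9 genes, against 6 of 9 in HoxC and 6 of 7 Meis and Pbx genes.

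HoxA, HoxB and HoxD were free of H3K79me2 peaks in every library, in both kinds of list. HoxA spans chr6:52155590-52260880 and its genes include Hoxa2, Hoxa3, Hoxa4, Hoxa5, Hoxa6, Hoxa7, Hoxa9, Hoxa10, Hoxa11 and Hoxa13. HoxB spans chr11:96194316-96368256 and holds Hoxb1 to Hoxb9 and Hoxb13. HoxD spans chr2:74668310-74765142 and holds Hoxd1, Hoxd3, Hoxd4, Hoxd8, Hoxd9, Hoxd10, Hoxd11, Hoxd12 and Hoxd13. These 30 genes include the HOXA9 and HOXA10 orthologues of the leukaemia programme.

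The unmarked stretch around each of these clusters differed in length. In the broad lists the peaks that flank HoxA lay 971 to 1031 kb apart, those that flank HoxB 694 to 697 kb apart, and those that flank HoxD 247 kb apart. HoxD was thus the cluster with peaks closest by. Its nearest peaks lay 89.2 to 89.4 kb before and 60.5 to 60.6 kb after the cluster in all 4 libraries. Broad peaks covered 10.6% to 10.8% of the 100 kb before HoxD and 36.2% to 38.7% of the 100 kb after it, and none of the 100 kb on either side of HoxA or HoxB. Mtx2, a mitochondrial outer membrane gene next to HoxD, was covered over 78.8%, 71.8%, 76.8% and 81.0% of its body.

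HoxC (chr15:102921103-103036852, 115750 bp) was the exception among the clusters. Broad peaks covered 51.9% and 52.4% of it in the CTR libraries and 56.2% and 54.4% in the NPM1 KD libraries. Both NPM1 KD values were higher, and the mean was 52.2% ± 0.38 (SD, n = 2) against 55.3% ± 1.30 (SD, n = 2), 3.17 percentage points apart. An exact two-sided permutation test of 2 against 2 libraries gave p = 0.33, the smallest it can give, so the design could not call this difference. With broad peaks restricted to a −log10 q of 5 or more, coverage was 43.7%, 40.1%, 46.4% and 40.3%. The groups then overlapped, and the difference was 1.44 points.

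Most of this coverage was a single domain that began at the start of Hoxc10. Its left edge lay 95, 26, 93 and 108 bp before the annotated start of Hoxc10, a spread of 82 bp. The domain was 46.6, 46.4, 53.8 and 46.6 kb wide. It ended within 129 bp of the same place in CTR 1, CTR 2 and NPM1 KD 2, after Hoxc6, whereas in NPM1 KD 1 it ran on into Hoxc4 without a gap. Its average fold was 10.1 and 9.81 in CTR and 9.22 and 9.16 in NPM1 KD, and its −log10 q was 90.6, 60.5, 62.4 and 75.1.

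**Figure D2:**
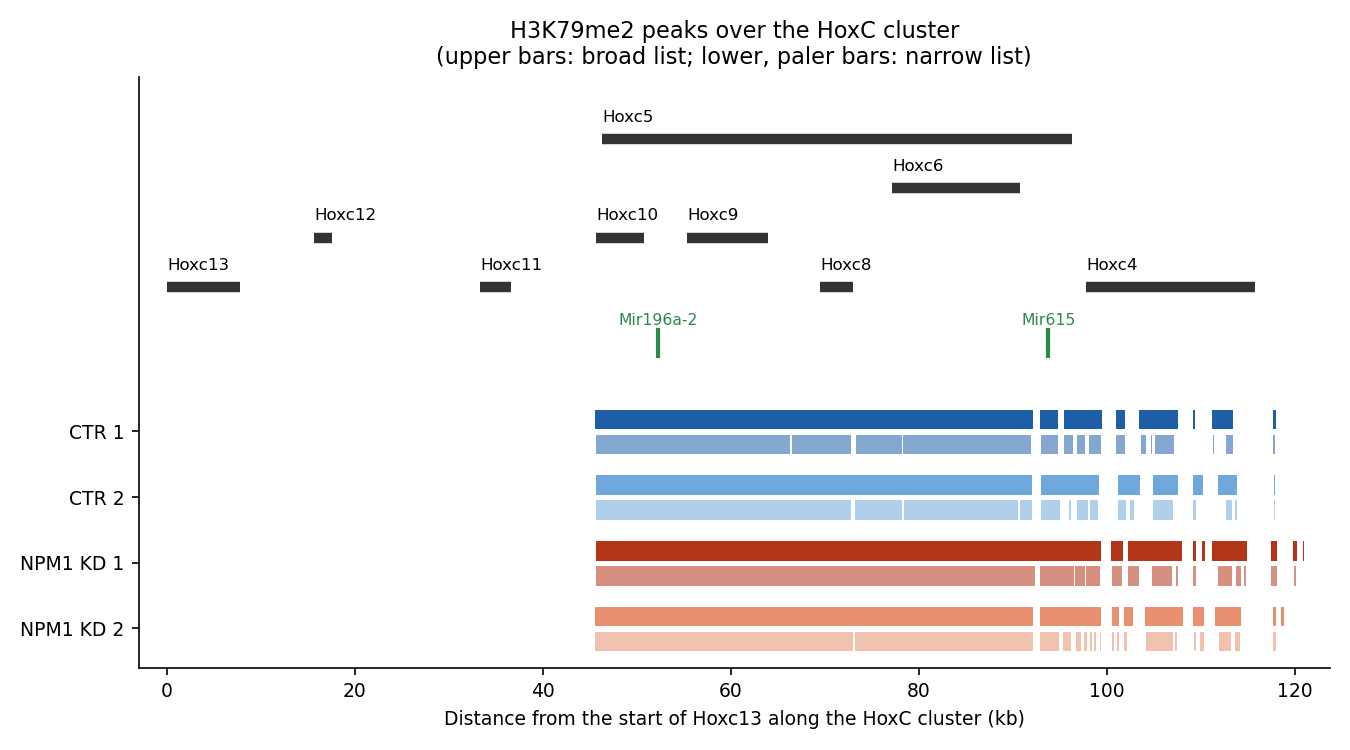
Map of HoxC with the distance from the start of Hoxc13 in kb on the horizontal axis; dark bars are genes, green ticks are the 2 microRNA genes under peaks, and for each library the upper bars are broad and the lower, paler bars narrow H3K79me2 peaks. In all 4 libraries the marked part begins at the start of Hoxc10, and Hoxc13, Hoxc12 and Hoxc11 to its left have no peak.

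The left edge divides HoxC by position. The 5′ genes Hoxc13, Hoxc12 and Hoxc11 and the long noncoding RNA gene Hotair between Hoxc12 and Hoxc11 had no peak in any library, and the nearest broad peak before the cluster was 248 to 249 kb away from Hoxc13. The genes from Hoxc10 to the 3′ end, Hoxc4, were all marked.

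Hoxc10, Hoxc9, Hoxc8 and Hoxc6 lay wholly inside the domain, at 100% covered in all 4 libraries. Covered length could therefore not rise in them, and 868 genes in all were fully covered in every library. Hoxc5 was covered over 97.3%, 98.2%, 100% and 98.6%. Its annotated body of 49987 bp starts inside Hoxc10 and spans Hoxc9, Hoxc8 and Hoxc6. The coverage of these 5 genes is thus largely the same peak counted again.

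The summit of the domain lay in the coding exon of Hoxc9. The highest narrow peak of HoxC had a fold of 38.5, 38.0, 35.3 and 23.8, which placed it at percentile 99.4, 99.4, 99.4 and 98.6 of all narrow peaks of its library. The 2 CTR values were close together, both NPM1 KD values were lower, and the NPM1 KD libraries differed from each other more than NPM1 KD 1 differed from CTR. The summits of CTR 1, CTR 2 and NPM1 KD 1 fell within 41 bp of each other, and that of NPM1 KD 2 fell further into the gene, in an intron of Hoxc9, which widened the span to 217 bp. The sequence around the 3 close summits is shown as the point of highest signal in any of the 46 genes, from the plus strand of GRCm38.p6, chr15:102982055-102982136, with the 3 summit bases in capitals:
Hoxc9 summit: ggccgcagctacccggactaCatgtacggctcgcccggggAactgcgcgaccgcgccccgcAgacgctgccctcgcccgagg
It holds 13 CG dinucleotides in 82 bases.

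A local maximum further along lay in an intron of Hoxc6. Its narrow peak had a fold of 24.1 in CTR 1, 25.6 in CTR 2 and 19.9 in NPM1 KD 2, and in NPM1 KD 1 it was merged with the Hoxc9 peak into a narrow peak of 46.8 kb and had no summit of its own. Such merging moved the value of Hoxc8 most. Hoxc8 was touched by a separate narrow peak with a fold of 9.0 in CTR 1, and in CTR 2, NPM1 KD 1 and NPM1 KD 2 by the peak with the Hoxc9 summit.

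Hoxc4, at the 3′ end of the cluster, carried a weaker and broken signal. Its body of 17919 bp was covered over 51.2%, 52.5%, 71.8% and 63.7%, so the groups did not overlap. It held 5, 5, 6 and 6 broad peaks, and its highest narrow fold was only 3.96, 3.58, 4.61 and 3.52. With broad peaks restricted to a −log10 q of 5 or more, Hoxc4 was covered over 12%, 0%, 8.48% and 0%. The direction of the difference turned (−1.75 percentage points). The CTR 1 value was a single peak with a −log10 q of 5.63, near the minimum. That of NPM1 KD 1 was the end of the domain that ran on into Hoxc4. In NPM1 KD 2 the highest −log10 q on Hoxc4 was 4.70. The turn thus rests on the CTR 1 peak and does not locate the higher coverage in NPM1 KD.

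MicroRNA genes inside the Hox clusters followed their surroundings. Mir196a-2, between Hoxc10 and Hoxc9, and Mir615, in an intron of Hoxc5, lay under a broad peak in all 4 libraries. Mir196a-1 and Mir10a in HoxB, Mir196b in HoxA and Mir10b in HoxD had none. The mature microRNAs are shown because members of the same seed family lie in marked and unmarked clusters. They are from RefSeq on GRCm38.p6, written 5′ to 3′ with the seed, bases 2 to 8, in capitals:
miR-196a-5p: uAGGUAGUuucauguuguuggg
miR-196b-5p: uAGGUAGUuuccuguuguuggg
miR-10a-5p: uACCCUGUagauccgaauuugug
miR-10b-5p: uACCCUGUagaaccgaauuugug
miR-615-3p: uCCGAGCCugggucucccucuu
The miR-196 family shares the seed AGGUAGU, and the same miR-196a-5p is encoded by the unmarked Mir196a-1 (chr11:96265187-96265208) and the marked Mir196a-2 (chr15:102973365-102973386). miR-196b-5p (chr6:52230129-52230150) differs from miR-196a-5p by A12C, counted from the 5′ end with the miR-196a-5p base first. The miR-10 pair, which shares the seed ACCCUGU, is encoded by unmarked genes only and differs by U12A, with the miR-10a-5p base first. miR-615-3p (chr15:103014969-103014990) shares its seed with none of the others shown. A peak over a microRNA gene inside a longer domain does not show that the microRNA is made.

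Among the cofactors, Meis1 and Meis2 were marked in every library and Meis3 was not. Meis1 (chr11:18879817-19018985) encodes the HOX cofactor of the leukaemia programme. It was covered over 81.9%, 80.6%, 87.0% and 87.9%. The groups did not overlap, with means of 81.3% and 87.5%. With broad peaks restricted to a −log10 q of 5 or more, Meis1 was covered over 59.1%, 30.5%, 60.8% and 73.7%. The mean difference was then 22.4 percentage points, with CTR 2 far below CTR 1. CTR 2 also had the lowest implied background, and the part of depth in its value was not tested. In the narrow lists Meis1 was covered over 67.4%, 63.4%, 68.5% and 77.7%, a mean difference of 7.73 percentage points. Its highest narrow fold was 17.0, 17.1, 17.3 and 15.5, with overlap between the groups.

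Meis2 (chr2:115863064-116065839) encodes the close relative of MEIS1 that is known from neural crest and brain development. It was covered over 55.2%, 48.4%, 72.6% and 72.0%, with all broad peaks the widest gap between groups among the 46 genes in percentage points. Its highest narrow fold went the other way, with 26.2 and 26.5 in CTR and 21.3 and 21.4 in NPM1 KD. Both measures separated the groups without overlap, in opposite directions. In the narrow lists Meis2 was covered over 39.5%, 32.4%, 50.3% and 57.6%, so the groups did not overlap there either. With broad peaks restricted to a −log10 q of 5 or more it was covered over 17.0%, 14.9%, 16.2% and 15.8%. The mean difference was then 0.0049 percentage points. This minimum removed most of the covered length in every library, so it does not show whether the weaker peaks differed.

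Meis3 (chr7:16175090-16186504) had no peak in CTR 1, CTR 2 or NPM1 KD 2. In NPM1 KD 1 it had a broad peak of 0.45 kb over 3.94% of its body, with a fold of 2.05 and a −log10 q of 1.98. Its fold stood at percentile 44.7 of the broad peaks of that library.

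**Figure D3:**
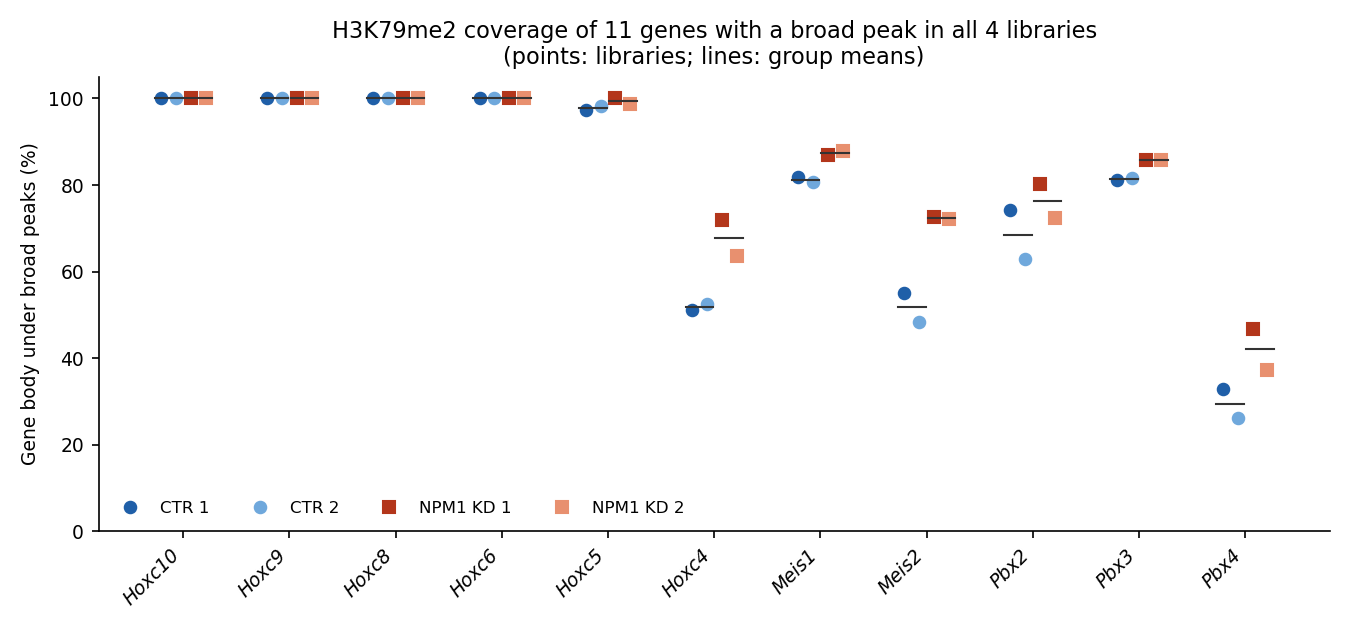
Percent of the gene body under broad H3K79me2 peaks for 11 of the 12 genes with a broad peak in all 4 libraries; circles are CTR, squares are NPM1 KD, and short lines are group means of 2 libraries. The groups do not overlap for Hoxc5, Hoxc4, Meis1, Meis2, Pbx3 and Pbx4, overlap for Pbx2, and are all at 100% for Hoxc10, Hoxc9, Hoxc8 and Hoxc6.

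The Pbx genes were marked to very different extents. Pbx3 (chr2:34171457-34373142), a HOX partner also known from leukaemia, was covered over 81.1% and 81.6% in CTR and 85.7% and 85.8% in NPM1 KD. Its longest broad peak measured 77.0 and 77.4 kb in CTR and 167 and 153 kb in NPM1 KD. The longer peaks in NPM1 KD ran over stretches that separate peaks covered in CTR, and the gene held 11, 10, 9 and 14 broad peaks.

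Pbx2 (chr17:34591266-34597400), the shortest of the Pbx genes, was covered over 74.1% and 62.8% in CTR and 80.3% and 72.4% in NPM1 KD by a single broad peak, and the groups overlapped. Pbx4 (chr8:69832491-69872292), which is best known from testis, was covered over 32.8% and 26.1% in CTR and 46.8% and 37.3% in NPM1 KD. The groups did not overlap for Pbx4, but its lower NPM1 KD value stood closer to CTR 1 than the CTR libraries stood to each other.

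Along the gene bodies, coverage fell from the 5′ to the 3′ end in Meis2, Pbx3 and Pbx4 and fell less in Meis1. Each gene was divided into 10 bins of equal length, with bin 1 at the 5′ end. Meis1 was lowest in bin 9, at 57.6%, 57.1%, 58.7% and 67.0%, and was at 72.2% to 83.0% in bin 10. Pbx3 stayed at 91.0% to 100% up to bin 8 and fell after it. In bin 1 broad peaks covered 100% of Meis1 in all libraries, 99.0% to 100% of Meis2, 93.8% to 97.6% of Pbx3 and 91.5% to 94.3% of Pbx4. The last 2 bins of Pbx4 were at 0% in every library.

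The difference between the groups lay in different parts of each gene. In Meis2 it was widest in bin 7, with 34.8% and 15.4% in CTR and 66.4% and 74.8% in NPM1 KD. The 3′ end of Meis2, bin 10, was at 7.79% and 1.91% in CTR and at 31.1% and 32.7% in NPM1 KD. The coverage of Meis2 thus reached further toward the 3′ end in both NPM1 KD libraries, while bin 1 differed by 0.51 points. In Meis1 it was widest in bin 8, with 61.4% and 63.3% in CTR and 75.8% and 83.8% in NPM1 KD. In Pbx3 it was widest in bin 9, with 30.8% and 33.5% in CTR and 52.6% and 49.6% in NPM1 KD. In Pbx4 it was widest in bin 4, with 51.1% and 31.4% in CTR and 100% and 57.3% in NPM1 KD. Bins were chosen here for their difference, so these values are a description.

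**Figure D4:**
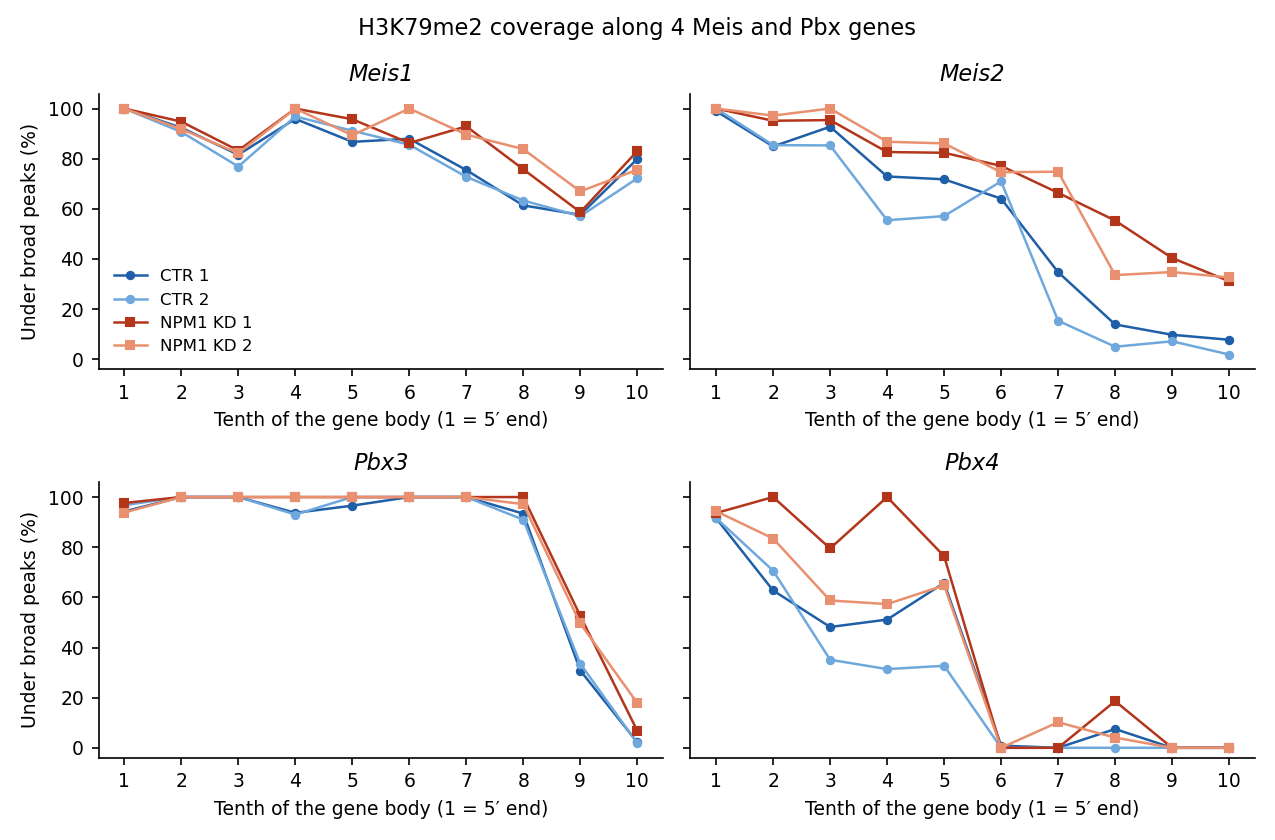
Percent under broad H3K79me2 peaks in 10 equal bins from the 5′ end (bin 1) to the 3′ end (bin 10) of 4 Meis and Pbx genes; blue lines are CTR and red lines NPM1 KD libraries. The lines of Meis2 part most in bin 7 (34.8% and 15.4% in CTR, 66.4% and 74.8% in NPM1 KD), whereas those of Pbx3 lie close together up to bin 8.

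The question put to both measures was whether NPM1 KD changed the mark on these genes. Covered length was tested with limma over the 10949 genes with a mean of at least 500 covered bp, which held 12 of the 46 genes. No gene of the 10949 passed the threshold of 0.05 on the adjusted p (0%), and none of the 12. At an unadjusted p under 0.05 limma gave 1556 genes (14.2%), 1495 of them higher in NPM1 KD, and 4 of the 12. These were Pbx3 with a log2 difference of 0.08 ± 0.0046 (SE, adjusted p = 0.183), Meis1 with 0.11 ± 0.012 (SE, adjusted p = 0.237), Meis2 with 0.48 ± 0.086 (SE, adjusted p = 0.287) and Hoxc4 with 0.35 ± 0.075 (SE, adjusted p = 0.313), on the log2(covered bp + 1000) scale. None of the 12 had a lower fitted covered length in NPM1 KD, and the median of their log2 differences was 0.09, against 0.07 over all genes tested. Hoxc10, Hoxc9, Hoxc8 and Hoxc6, fully covered in every library, were fixed at 0 and hold the median of the 12 down. Genes fully covered in every library are also among all genes tested.

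The direction was that of the whole table. Covered length was above both CTR libraries in both NPM1 KD libraries for 7 of the 12 genes, among them Hoxc4, Hoxc5, Meis1, Meis2, Pbx3 and Pbx4, beside 44.9% of all genes tested, and below both in none, beside 2.8%. The 4 fully covered genes of the 12 could not differ. Among genes tested that were not fully covered in every library, the share above was 48.7%. Among genes of 100 kb or longer, as Meis1, Meis2 and Pbx3 are, 67.3% had both NPM1 KD libraries above both CTR libraries. The genome-wide length under broad peaks given above was also larger in both NPM1 KD libraries, and its part in these gene values was not tested.

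Peak height, the highest narrow fold touching a gene, was compared after each library was centred on its median over the 10978 genes with a narrow peak in all 4 libraries. Centring takes out any change that all genes share, so this comparison cannot show a uniform rise or fall. limma called 29 genes (0.264%), 24 higher and 5 lower in NPM1 KD, and none of the 12. Without centring it called 8 higher and 4 lower. At an unadjusted p under 0.05 it gave 890 genes (8.11%) and 3 of the 12, namely Hoxc10, Hoxc9 and Hoxc5, which share the peak with the Hoxc9 summit and so are a single measurement. Its log2 difference was −0.35 ± 0.15 (SE, adjusted p = 0.603). It was −0.18 without NPM1 KD 2 (adjusted p = 0.536 in limma) and −0.52 without NPM1 KD 1 (adjusted p = 0.0276), so its size rests on NPM1 KD 2. Each of these fits leaves 1 NPM1 KD library, which is assumed to vary as the CTR libraries do, and without NPM1 KD 1 the genes called numbered 424.

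Meis2 had a log2 difference in height of −0.25 ± 0.13 (SE, adjusted p = 0.621 in limma). The positive differences with the smallest p were those of Pbx4 with 0.32 ± 0.18 (SE, adjusted p = 0.640), Hoxc4 with 0.15 ± 0.16 (SE, adjusted p = 0.787) and Hoxc6 with 0.15 ± 0.19 (SE, adjusted p = 0.827). The value of Pbx4 was 0.13 without NPM1 KD 2 and 0.16 without CTR 2. That of Hoxc6 rests on the merged peak of NPM1 KD 1, since it was −0.15 without that library and −0.06 in the broad lists. Hoxc8 was fitted at 0.70 ± 1.04 (SE), which rests on the separate peak in CTR 1 described above. Without CTR 2 its log2 difference was 1.78 and limma called it (adjusted p = 1.2e-13), since CTR 1 was then the only CTR library and was assumed to vary as the NPM1 KD libraries do. After centring, both NPM1 KD libraries were above both CTR libraries for Hoxc4 alone, beside 16.9% of genes tested, and below both for Meis2 and the 3 genes of the Hoxc9 summit, beside 24.6%. Of the 15 neuroblastoma genes, 12 could be tested on height. The median of their log2 differences was −0.30, against −0.03 over all genes, and 6 of them were lower at an unadjusted p under 0.05 in limma, with none past the adjusted threshold. The part of this in the values of Meis2 and HoxC was not tested.

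**Figure D5:**
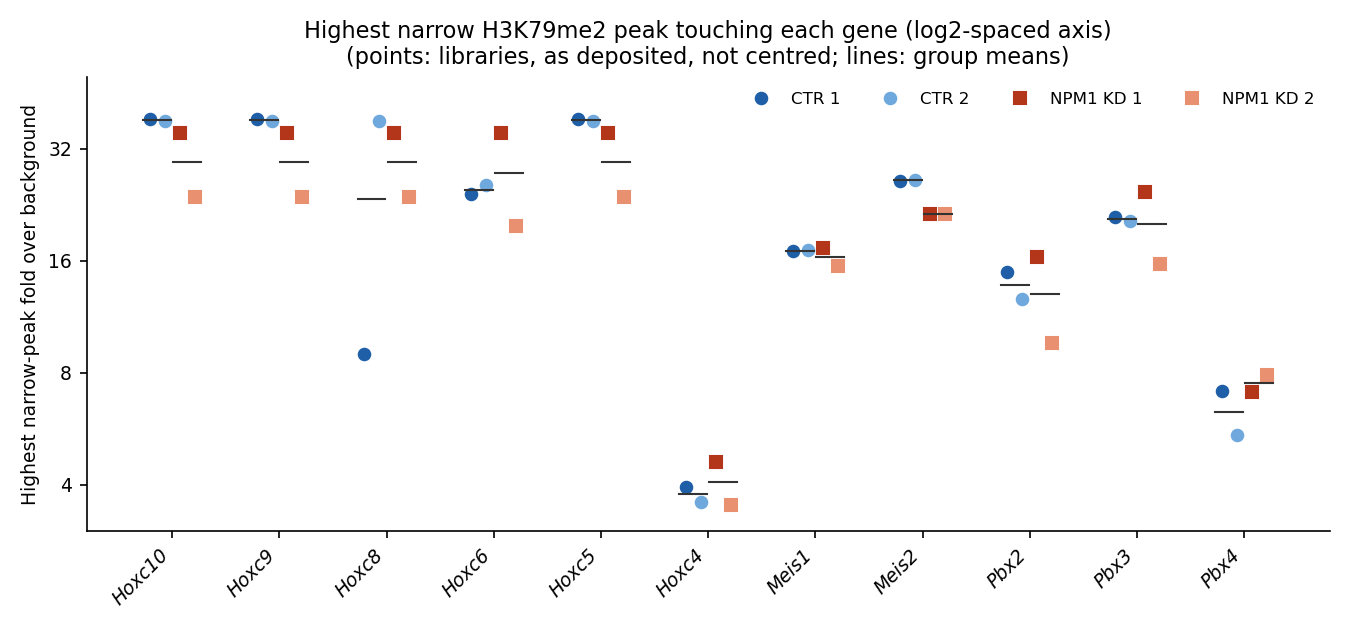
Highest narrow-peak fold over background, on a log2-spaced axis and as deposited, for 11 of the 12 genes with a peak in all 4 libraries; circles are CTR, squares NPM1 KD and short lines group means of 2 libraries. Hoxc10, Hoxc9 and Hoxc5 show the same peak (38.5, 38.0, 35.3 and 23.8), and the CTR 1 value of Hoxc8 (9.0) is a separate, lower peak.

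Set against all genes with a narrow peak in all 4 libraries, the marked genes ranged widely in height. By mean height, the peak with the Hoxc9 summit stood at percentile 93.4, Meis2 at 79, Pbx3 at 70.1, Meis1 at 59.9 and Pbx2 at 47.5. Pbx4 stood at percentile 22.7 and Hoxc4 at 8.96.

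The other TALE homeobox genes were marked less often than the Meis and Pbx genes. Of 11, 4 had a broad peak in all 4 libraries and 7, Pknox2 and the Irx genes Irx1 to Irx6, had none. Tgif1, a repressor of TGF-beta responses, was fully covered, Tgif2 over 97.6% to 98.2% and Pknox1, another PBX partner, over 46.8% to 50.2%, and Mkx over 2.5% to 3.4%. Genes outside the clusters with a homeobox of other classes were marked in 12 of 37 cases, with Phox2a, a sympathetic neuron factor, at 100% in all libraries, and Isl2 and Six2 at 89.7% or more. Gene lists were compared by these counts alone, and no difference between lists was tested.

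Of 17 upstream regulators of Hox genes, 11 had a broad peak in all libraries, beside 50.2% of all protein-coding genes, and Cdx1, Cdx2, Cdx4, Gbx2, Cyp26a1 and Rarb had none in any. The marked ones were led by Rara, a retinoic acid receptor, at 99.8% to 100%, Mllt10, a DOT1L partner, at 97.7% to 100%, and Men1, which encodes the MLL partner menin, at 84.1% to 100%. All 14 Polycomb genes tested were marked, with Pcgf2, Cbx7 and Cbx2 at 96.5% or more in every library. Of 14 leukaemia genes of the Hox and Meis programme, Meis1 among them, 5 were marked in all libraries, led by Myc at 100% and Jmjd1c, a histone demethylase gene, at 92.1% to 94.7%, followed by Meis1 and by Hlf at 20.7% to 39.5%.

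Genes at the ends of the clusters were marked in 7 of 13 cases, and Prac1 was not found in the annotation. Cbx5, which encodes the heterochromatin protein HP1 alpha and lies beyond HoxC, was covered over 95.0% to 96.6%, Atp5g1 near HoxB over 83.2% to 88.5%, Mtx2 as given above and Smug1 near HoxC over 62.1% to 82.8%. Evx1, Evx2, Skap1, Skap2, Calcoco1 and Ttll6 had no peak. Of 17 noncoding RNA genes of the clusters, Mir196a-2 and Mir615 were marked and 15 were not, among them Hotairm1, Hottip and Haglr. limma called none of the genes of these lists that it could test. On covered length these were 4 of the other TALE genes, 7 neighbours, 11 upstream regulators, 5 leukaemia genes, 13 non-clustered homeobox genes and 14 Polycomb genes, on height the same numbers but for 10 regulators and 12 non-clustered homeobox genes, and the noncoding RNA genes were not tested. The median log2 difference in covered length was 0.00 in the other TALE genes, 0.05 in the neighbours, 0.01 in the upstream regulators, 0.03 in the leukaemia genes, 0.08 in the non-clustered homeobox genes and 0.04 in the Polycomb genes.

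Promoter composition overlapped between marked and unmarked genes. RefSeq promoter windows of 300 bases (250 before and 50 after the start, GRCm38.p6) matched 27 of the 46 genes, of which 5 were marked. With the higher count taken where a gene had more windows than one, these held 4 to 45 CG dinucleotides with a median of 19, against a median of 7 over 32851 windows of all genes. The 5 marked genes ranged from 9 in Hoxc4 to 29 in Pbx2, inside the range of 4 to 45 of the 22 others, whose highest was the unmarked Hoxa13. The letters TGACAG, a sequence bound by MEIS proteins, were looked for on both strands and found in the windows of Hoxa2 and Hoxa3 only, which is 7.41% of the 27 genes, against 19.2% of all windows. A match is a description of the letters, and no match says only that they are not in this window.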

How the data were processed

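H3K79me2 ChIP-seq libraries of N2a cells (CTR and NPM1 KD, 2 each) were grouped by their labels. Per the submitters' processing notes, the authors used FastQC 0.11.9, Trimmomatic 0.38, Bowtie2 2.3.4.1, SAMtools, MACS2 2.2.6, ChIPseeker 1.28.3 and deepTools 3.3.2.0.0 on mm10, and called peaks per library. Whether the input was the background was not stated, and only the broad lists are named as filtered. The deposited columns give the fold (a ratio to background), the −log10 p and −log10 q, a score made from q, and, in the narrow lists, the summit position. Depth was not given in total reads.

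Covered length and highest fold per gene body (GENCODE release 21, GRCm38) were computed in Python (3.11.15) with pandas 2.3.3, numpy 2.4.6 and, for tests, scipy 1.17.1. matplotlib 3.10.9 drew the figures. A peak counted when it shared at least 1 bp with the gene. limma 3.58.1 in R 4.3.3 (trend and robust settings, Benjamini-Hochberg adjustment over all genes, threshold 0.05) tested log2(covered bp + 1000), with a minimum mean of 500 bp, and log2 of the highest narrow fold centred per library. These steps were tested on simulated data with spreads taken from the real libraries. Of 200 genes given a log2 change of 0.5, limma called 73 on covered length and 40 on height. In the same run 200 genes each were given a change of 1 and of 2. On covered length 123 and 163 of these were called. Such genes share the adjustment and ease its cutoff, and simulated covered lengths were not capped at the gene length. The counts are thus not the power in the real libraries. Single values were compared by exact permutation tests, two-sided, whose smallest p is 0.33. The study itself tested read counts, which were not analysed here. p-values measure the spread between passages of 1 line.

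Some genes and 1 sequence that these rules select are not reported here. All others of the set are accounted for. The text names those with a peak in at least 1 library with values, the 4 genes of each related list with the highest covered percent, and, where no gene of the set passed a test, the 3 per direction with the smallest unadjusted p. The members and lists were chosen with earlier results of these data known. Alternatives were narrow lists, a −log10 q minimum of 5, a 200 bp pseudocount, no filter, 3 kb upstream added, a 50% overlap, clusters widened by 5 kb, no centring, mean fold, the replicate block and each library left out.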

Additional observations from a re-analysis of the deposited data

How the results depend on the processing

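The number of genes called on covered length (0) stayed at 0 with the narrow lists, a 200 bp pseudocount, no filter and 3 kb upstream added, and was 0 to 0 without each library in turn. It was 57 when broad peaks needed a −log10 q of 5, none of them among the 46 genes. The 29 calls on peak height became 68 with broad folds, 12 without centring, 0 with the mean fold of a gene's peaks and 100, 62, 424 and 92 without CTR 1, CTR 2, NPM1 KD 1 and NPM1 KD 2 (62 to 424). The cause was not tested. The HoxC difference of 3.17 percentage points was 1.44 with the −log10 q minimum and 2.25 to 4.09 without each library. The median covered percent of the 12 marked genes, 84.0% with broad lists, was 74.0% with narrow lists and 74.8% with the −log10 q minimum, as fewer or shorter peaks enter. Of 12 genes marked in all libraries, 11 remained marked with the −log10 q minimum and 9 when 50% of the body had to be covered.

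Libraries of the 2 groups share replicate numbers, and the methods give each replicate its own passage and transfection batch, so libraries with the same number may share a batch, which the labels do not state. Across genes, libraries with the same number deviated from the group mean with a correlation of 0.28. With the replicate block limma called 0 genes on covered length and 33 on peak height, none of them among the 46 genes. Total reads were unknown, the implied background differed between libraries and was lowest in CTR 2, whether a missing peak reflects depth was not tested, and 2 libraries per group leave few degrees of freedom.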
